A study of Mus musculus with 6 samples.

Results

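The genes of ribosome biogenesis and of RNA polymerases I and III were examined in 6 mouse livers measured by RNA-seq. A symbol pattern chose them and took 77 of the 17441 genes of the deposited table. Of these, 68 have a role in making ribosomes or in the polymerases. The other 9 matched by the start of their symbol alone: the fibulin genes Fbln1, Fbln2, Fbln5 and Fbln7, the filamin-binding gene Fblim1, the nicalin gene Ncln, the apoptosis repressor gene Nol3, Nol4l and the fibrillarin-like gene Fbll1. They are described apart. Of the livers, 3 are labelled wild type (WT) and 3 iKO, a knockout of the kinase gene Nek7 in the whole body that tamoxifen induces. All 6, WT included, were taken 10 days after tamoxifen. The sources used here do not give the driver of the recombinase, the strain, the age, the sex or the hour of collection. They number the livers without saying that these are separate animals, so p-values measure the spread between these samples, which may be technical.

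A ribosome starts in the nucleolus, where RNA polymerase I transcribes the long precursor of the large ribosomal RNAs, while RNA polymerase III makes the short ribosomal RNA and the transfer RNAs. Small nucleolar ribonucleoproteins (snoRNPs) modify the precursor, box C/D particles by ribose methylation and box H/ACA particles by pseudouridylation. The small subunit processome cuts and folds the part that becomes the small subunit, and a separate set of factors builds the large one. In the liver this programme is known to vary with growth, feeding and the time of day, and the transcription factor MYC drives many of its genes.

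The libraries held between 18139500 and 19912000 expected counts. Levels are given as CPM, read counts scaled to a common library size with TMM factors, or as TPM, a length-scaled unit, where genes of different length are set side by side. A called gene passed an adjusted p of 0.05 in edgeR's quasi-likelihood test over the 13160 genes tested. Nek7 itself measured 55.5, 40.5 and 36.3 CPM in the WT livers against 50.2, 32.8 and 31.0 CPM in those labelled iKO (log2 fold change -0.22, edgeR adjusted p = 0.541). Its gene-level total does not set the groups apart, so the text writes "labelled iKO". Reads of the Y-linked genes Ddx3y and Kdm5d summed to 1113 counts in WT 1 but to 0 in WT 2 and WT 3. In the libraries labelled iKO they summed to between 573 and 883. Apparent sex is therefore partly mixed with the group label, and the 2 cannot be fully told apart. Markers of 4 other kinds of liver cell included calls lower in the libraries labelled iKO, where 8.07% of all tested genes were called lower and 7.31% higher. Of 18 stellate cell and fibroblast markers 10 were called lower, and their summed level ran from 397 to 669 CPM in WT and from 201 to 253 CPM in those labelled iKO. Of 9 Kupffer cell markers 6 were called lower (335 to 613 against 216 to 280 CPM), of 8 endothelial markers 4 (151 to 241 against 67.3 to 134 CPM) and of 8 neutrophil markers 5 (26.5 to 121 against 10.8 to 32.3 CPM). With the term for Y-linked reads described below, 3 stellate cell and fibroblast markers, 0 Kupffer cell, 0 endothelial and 1 neutrophil marker were called lower, and their median log2 fold changes went from -1.36, -1.15, -1.13 and -2.82 to -0.73, -0.48, -0.32 and -1.62. Of 6 cholangiocyte markers 0 were called by edgeR, with 5 fold changes above 0, a median of 0.47 and sums of 120 to 203 CPM in WT against 73.1 to 414 CPM. Of 7 lymphocyte markers 0 were called by edgeR (median -0.07; 7.01 to 11.8 against 7.40 to 10.99 CPM). No marker of the 4 lists with calls was at 0 in all libraries. Of 8 hepatocyte markers 2 were called higher, Tat (log2 fold change 1.64) and Hnf4a (0.79), and 0 lower, with a median of 0.41, or 0.07 with the length correction described below. Their summed level, most of it Alb, was 104034 to 116846 CPM in WT and 105768 to 117008 CPM in those labelled iKO. The part of these shifts in the results was not tested, and in whole tissue fewer cells of a type and less RNA per cell cannot be told apart.

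Promoter windows of 300 bases around the start were at hand for 62 of the 77 genes, from RefSeq on GRCm38.p6. They were searched for the E-box CACGTG, which MYC and the clock factors CLOCK and BMAL1 are known to bind and which reads the same on both strands. The string was in 19 of 79 windows of these genes (24.1%) and in 2349 of 32851 windows of all genes (7.15%). Windows of 1 gene can overlap, and a match is a run of letters, not a site. Of the 18 genes called higher (below) 15 had a window and 3 held the string. Of the 3 called lower 3 had a window and 1, Utp14b, held it. Of the 54 that were not called 42 had one and 12 held it. The 3 genes called higher that carry the string are shown, with it in capitals. Nop56 is shown as a clear rise whose window holds none.

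Nop2, chr6:125131633-125131932, plus strand: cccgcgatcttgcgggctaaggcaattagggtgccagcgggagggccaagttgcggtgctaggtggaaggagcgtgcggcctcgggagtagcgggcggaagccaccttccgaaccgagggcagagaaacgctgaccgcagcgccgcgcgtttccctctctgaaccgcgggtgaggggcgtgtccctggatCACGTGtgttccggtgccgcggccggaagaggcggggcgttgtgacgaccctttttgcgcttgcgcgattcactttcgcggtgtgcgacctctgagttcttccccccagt
Utp4, chr8:106893390-106893689, plus strand: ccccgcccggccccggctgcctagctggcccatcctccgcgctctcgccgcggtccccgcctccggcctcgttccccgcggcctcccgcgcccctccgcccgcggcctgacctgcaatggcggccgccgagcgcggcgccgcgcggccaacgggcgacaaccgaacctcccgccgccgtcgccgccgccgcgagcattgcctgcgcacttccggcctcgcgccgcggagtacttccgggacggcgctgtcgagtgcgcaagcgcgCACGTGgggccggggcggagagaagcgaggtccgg
Wdr43, chr17:71615965-71616264, plus strand: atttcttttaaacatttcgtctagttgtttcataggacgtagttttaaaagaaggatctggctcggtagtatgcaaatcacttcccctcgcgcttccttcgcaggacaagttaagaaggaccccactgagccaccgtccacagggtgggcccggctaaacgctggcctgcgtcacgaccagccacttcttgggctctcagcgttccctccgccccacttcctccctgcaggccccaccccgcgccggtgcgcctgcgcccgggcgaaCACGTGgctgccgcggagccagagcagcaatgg
Nop56, chr2:130274162-130274461, plus strand: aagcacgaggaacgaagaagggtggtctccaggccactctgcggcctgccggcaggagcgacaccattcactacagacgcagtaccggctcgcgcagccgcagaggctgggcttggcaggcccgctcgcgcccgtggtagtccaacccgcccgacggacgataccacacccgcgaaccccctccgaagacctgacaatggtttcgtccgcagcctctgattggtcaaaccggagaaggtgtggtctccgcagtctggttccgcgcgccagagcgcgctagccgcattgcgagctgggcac

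In Nop2 the E-box lies 60 bases before the start. In Utp4 it lies 15 bases after the start, and in Wdr43 17 bases after it.

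Genes of ribosome biogenesis were more often higher than lower in the livers labelled iKO. Of the 77, 75 passed the filter on low counts. Fbll1 had 0 counts in every library, and Fbln7 had 7, 37 and 47 counts in WT and 1, 5 and 5 in those labelled iKO. Of the 75, 18 were called higher (24.0%) and 3 lower (4.00%), where the shares over all tested genes were 7.31% and 8.07% (15.4% in all). The 18 rises lay among the 68 genes with a role, and the falls were Utp14b and the fibulin genes Fbln5 and Fbln2. The median log2 fold change was 0.44 over the 75 genes and -0.02 over all tested genes. It was above 0 in 60 of the 75 (80.0%) and in 48.3% of all tested genes. In 39 genes every library labelled iKO lay above every WT library in CPM (52.0%, against 19.8% of all tested genes), and in 6 every one lay below (against 19.2% of all tested genes). Groups without overlap made up 39.0% of all tested genes. In TPM the tally differed: 13 of the 75 genes lay above WT in every library labelled iKO (17.3%, against 6.19% of all tested genes) and 8 lay below (10.7%, against 25.8%). Rises ran from 0.58 to 1.57 on the log2 scale, in genes with WT means between 4.86 and 29.0 CPM. Of the 18 calls 11 ended without WT 2, and 8 of the 21 calls held in each fit that left out 1 library.

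**Figure D1:**
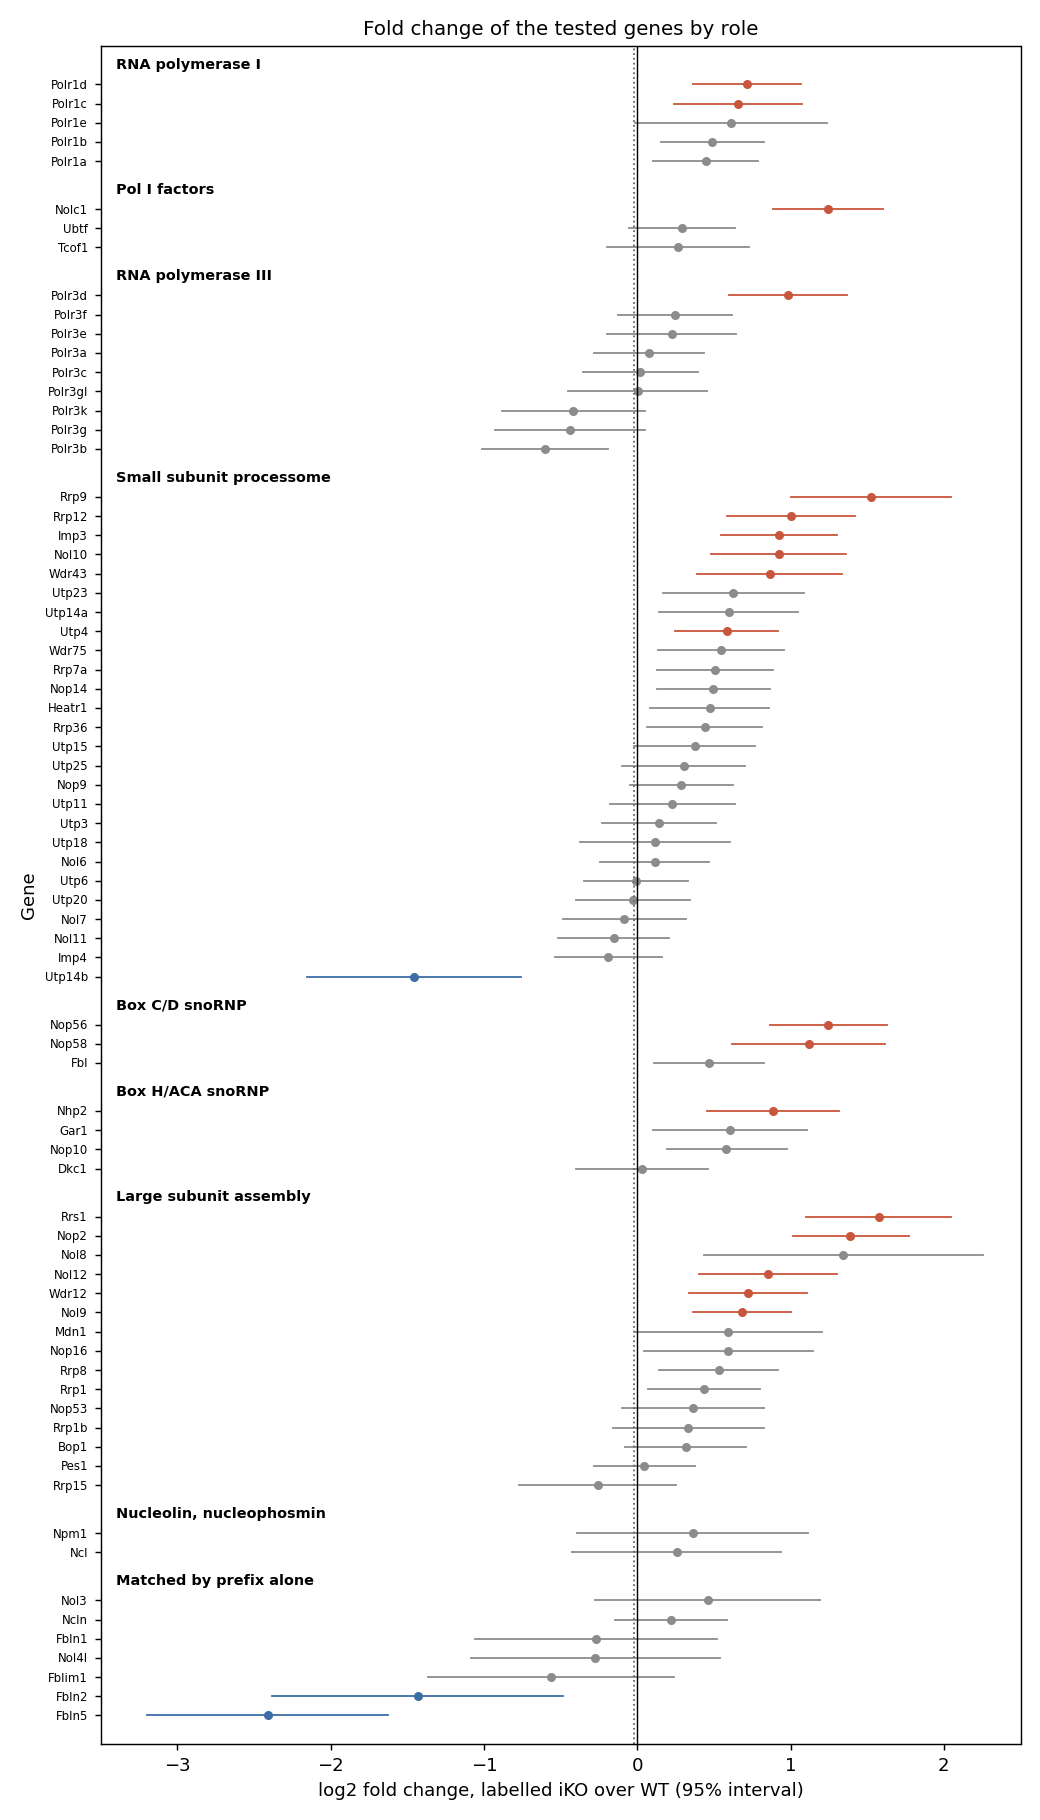
Log2 fold change of labelled iKO over WT for the tested genes that are reported by name, grouped by role. Points are edgeR estimates, lines are unadjusted 95% intervals, red marks genes called higher, blue genes called lower and grey genes not called; the dotted line is the median of all tested genes at -0.02. Polymerase I, box C/D and most large subunit genes lie to the right of 0, polymerase III genes on both sides.

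All 5 genes of RNA polymerase I had a fold change above 0, and 2 were called higher (7.31% of all tested genes were). Polr1d encodes a small subunit that polymerases I and III share. It measured 32.2, 26.9 and 27.8 CPM in the WT livers against 54.4, 42.9 and 45.8 CPM in those labelled iKO and rose by 0.72 on the log2 scale (SE 0.16, edgeR adjusted p = 0.0181). Polr1c, its assembly partner and also shared, measured 9.03, 10.1 and 12.6 CPM in the WT livers against 19.2, 14.8 and 16.0 CPM and rose by 0.66 (SE 0.19, edgeR adjusted p = 0.0429). The groups did not overlap in either gene. Polr1a, which encodes the largest subunit, measured 18.5, 20.8 and 17.8 CPM in the WT livers against 28.6, 23.2 and 26.1 CPM and was not called (log2 fold change 0.45, edgeR adjusted p = 0.0741). Polr1b, for the second-largest, measured 12.9, 12.6 and 13.2 CPM in the WT livers against 19.8, 16.6 and 18.1 CPM and was not called (log2 fold change 0.49, edgeR adjusted p = 0.0542). In both of these catalytic subunit genes too the groups did not overlap. Polr1e, for a subunit used in initiation, measured 2.97, 4.00 and 2.71 CPM in the WT livers against 5.26, 3.70 and 5.86 CPM, and its groups overlapped (log2 fold change 0.61, edgeR adjusted p = 0.158). Correction for transcript length exchanged the calls: Polr1a (edgeR adjusted p = 0.0269) and Polr1b (0.0278) passed, and Polr1d (0.199) and Polr1c (0.129) did not. The Polr1d call also ended when WT 2 (0.102) or WT 3 was left out, and the Polr1c call when WT 1, WT 2 (0.153), iKO 1 or iKO 3 was.

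Of 3 factors that work with polymerase I, 1 was called higher (7.31% of all tested genes were). Nolc1 encodes a nucleolar phosphoprotein that binds polymerase I and snoRNPs. It measured 16.0, 15.4 and 12.4 CPM in the WT livers against 33.0, 33.0 and 37.9 CPM in those labelled iKO and rose by 1.25 (SE 0.16, edgeR adjusted p = 0.00232), and the groups were far apart. Ubtf, for the factor that keeps ribosomal DNA open, measured 48.0, 46.2 and 50.7 CPM in the WT livers against 67.2, 53.1 and 57.3 CPM (log2 fold change 0.29, edgeR adjusted p = 0.217). Tcof1, for the nucleolar protein treacle, measured 10.2, 11.8 and 13.0 CPM in the WT livers against 17.5, 10.7 and 14.01 CPM, and its groups overlapped (log2 fold change 0.27, edgeR adjusted p = 0.397).

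RNA polymerase III genes lay on both sides of 0. Of 10, 1 was called higher (10.0%, against 7.31% of all tested genes) and 0 lower (against 8.07%). Their median log2 fold change was 0.05. Without the adjustment, the edgeR interval of Polr3b lay below 0. The sign of the polymerase III median depends on the scaling (-0.01 with upper-quartile factors) and on iKO 1 (-0.04 without it). With upper-quartile factors the median of all tested genes was at -0.08 too. The polymerase III median minus that of all tested genes was 0.07 with TMM factors and with upper-quartile factors. Without iKO 1 it was -0.035. Without any 1 of the other libraries the polymerase III median itself ran from 0.01 (without WT 1) to 0.14 (without iKO 3). With the term for Y-linked reads described below it was 0.18, and with that term and the length correction 0.26. Polr3d encodes a subunit used in initiation and termination. It measured 6.59, 6.13 and 6.77 CPM in the WT livers against 13.99, 13.0 and 11.5 CPM in those labelled iKO and rose by 0.98 (SE 0.17, edgeR adjusted p = 0.00817). Polr3e, for its partner, measured 8.97, 10.1 and 8.84 CPM in the WT livers against 8.66, 11.7 and 12.2 CPM, with overlap (log2 fold change 0.22, edgeR adjusted p = 0.441). Polr3b, for the second-largest subunit, measured 16.3, 16.5 and 16.0 CPM in the WT livers against 8.99, 13.3 and 9.80 CPM. Its groups did not overlap, with the libraries labelled iKO below, and it was not called (log2 fold change -0.60, edgeR adjusted p = 0.0538). Polr3a, for the largest, measured 13.8, 14.1 and 16.6 CPM in the WT livers against 16.99, 15.7 and 14.2 CPM (log2 fold change 0.08, 95% interval -0.28 to 0.43). The paralogs Polr3g and Polr3gl encode alternative forms of 1 subunit. Polr3g measured 8.55, 6.57 and 6.38 CPM in the WT livers against 4.66, 5.90 and 5.29 CPM, all below WT (log2 fold change -0.44, edgeR adjusted p = 0.195). Polr3gl measured 9.82, 15.5 and 14.02 CPM in the WT livers against 15.1, 11.8 and 12.6 CPM, with overlap (log2 fold change 0.00, 95% interval -0.45 to 0.46). In Polr3gl no library had a whole expected count, so its reads may be shared out among genes. The same held in 3 of the 18 genes called higher (Nol9, Nol10 and Wdr12) and in 22 of the 54 not called, Polr3gl included. In Nol12, also called higher, the count was not whole in 5 libraries. Genes of subunits that polymerases I and III share, such as Polr1c and Polr1d, were counted under polymerase I alone. Whether polymerase III genes differ from those of polymerase I was not tested.

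Of 3 core genes of the box C/D snoRNP, 2 were called higher (7.31% of all tested genes were), and none of the 3 overlapped between groups (39.0% of all tested genes did not). Nop56, a scaffold of the methylation particle, measured 13.5, 13.9 and 13.3 CPM in the WT livers against 30.6, 27.3 and 38.9 CPM in those labelled iKO and rose by 1.25 (SE 0.17, edgeR adjusted p = 0.00276). Its partner Nop58 measured 10.2, 9.01 and 5.80 CPM in the WT livers against 16.0, 18.1 and 20.2 CPM and rose by 1.12 (SE 0.22, edgeR adjusted p = 0.0127). These calls did not end when any 1 library was left out. Fbl, for the methyltransferase fibrillarin, measured 30.0, 27.0 and 29.8 CPM in the WT livers against 46.9, 34.5 and 38.7 CPM (log2 fold change 0.47, edgeR adjusted p = 0.0729); with the length correction its log2 fold change was 0.14.

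Of 4 box H/ACA genes, 1 was called higher (7.31% of all tested genes were). Nhp2, a core protein, measured 17.6, 11.4 and 15.1 CPM in the WT livers against 30.6, 24.3 and 26.4 CPM in those labelled iKO and rose by 0.89 (SE 0.19, edgeR adjusted p = 0.0175). This call ended without WT 2 (0.0816) and with the length correction (0.0736). Nop10 (log2 fold change 0.58, edgeR adjusted p = 0.0509) and Gar1 (log2 fold change 0.61, edgeR adjusted p = 0.0923), for the other small partners, had no overlap and were not called. With the length correction their log2 fold changes were 0.06 and 0.34, and the median of the 4 genes went from 0.59 to 0.20. Dkc1, for the pseudouridine synthase itself, measured 9.40, 11.5 and 8.46 CPM in the WT livers against 8.73, 9.86 and 11.3 CPM, with overlap (log2 fold change 0.03, 95% interval -0.40 to 0.46). The difference between the enzyme and its partners was not tested.

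Among 26 genes of the small subunit processome, 6 were called higher and 1 lower, where 7.31% and 8.07% of all tested genes were. Their median log2 fold change was 0.41, or 0.29 with the term for Y-linked reads. Rrp9 encodes a protein of the U3 snoRNP, which guides the first cuts. It measured 4.30, 5.68 and 4.59 CPM in the WT livers against 18.2, 10.9 and 13.0 CPM in those labelled iKO and rose by 1.53 (SE 0.23, edgeR adjusted p = 0.00461). Imp3, for another U3 protein, measured 23.5, 19.9 and 23.6 CPM in the WT livers against 49.3, 35.5 and 42.5 CPM and rose by 0.93 (SE 0.17, edgeR adjusted p = 0.00922). Its partner Imp4 measured 19.2, 20.02 and 19.6 CPM in the WT livers against 18.1, 18.8 and 14.7 CPM, all below WT, and was not called (log2 fold change -0.19, edgeR adjusted p = 0.426). Rrp12, a factor of maturation and export, measured 6.05, 5.37 and 6.04 CPM in the WT livers against 13.6, 10.7 and 10.8 CPM and rose by 1.00 (SE 0.19, edgeR adjusted p = 0.00988). Nol10 measured 4.99, 5.28 and 4.64 CPM in the WT livers against 9.99, 8.10 and 10.2 CPM and rose by 0.92 (SE 0.20, edgeR adjusted p = 0.0164). The 2 remaining rises were in genes of a complex that binds the start of the precursor. Wdr43 measured 14.3, 12.5 and 8.46 CPM in the WT livers against 18.5, 21.8 and 23.8 CPM and rose by 0.86 (SE 0.21, edgeR adjusted p = 0.0271). Utp4 measured 12.8, 11.9 and 12.1 CPM in the WT livers against 20.05, 17.05 and 18.1 CPM and rose by 0.58 (SE 0.15, edgeR adjusted p = 0.0319). Without WT 2 the calls of Imp3 (0.0546), Rrp12 (0.0586), Nol10 (0.0638), Wdr43 (0.0825) and Utp4 (0.141) ended. Those of Nol10, Wdr43 and Utp4 also ended without WT 3 or iKO 3, that of Wdr43 without iKO 2, and that of Utp4 without WT 1 or iKO 1.

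The other 19 processome genes were not called, with log2 fold changes from -0.19 to 0.63. Heatr1, for a large scaffold protein, measured 15.4, 14.9 and 14.6 CPM in the WT livers against 24.8, 16.99 and 20.5 CPM (log2 fold change 0.47, edgeR adjusted p = 0.0896) and passed with the length correction (0.0440). Utp20, for another, measured 12.2, 14.7 and 12.1 CPM in the WT livers against 13.3, 11.3 and 13.6 CPM, with overlap (log2 fold change -0.03, 95% interval -0.40 to 0.35). The gene called lower was Utp14b, a copy of Utp14a. It measured 3.88, 5.90 and 4.93 CPM in the WT livers against 1.47, 2.41 and 1.45 CPM in those labelled iKO and fell by 1.46 (SE 0.31, edgeR adjusted p = 0.0167), which ended without WT 2 (0.0869) or iKO 3. In the GRCm38 annotation it overlaps Acsl3, a gene of fatty acid activation, over 9777 bases. Acsl3 measured 29.8, 33.1 and 40.9 CPM in the WT livers against 8.79, 13.1 and 19.7 CPM and was called lower too (log2 fold change -1.32, edgeR adjusted p = 0.0157). Expected counts of Utp14b were not whole in 5 libraries, and how far reads of Acsl3 were counted there was not tested. Utp14a measured 12.2, 8.83 and 8.60 CPM in the WT livers against 17.6, 12.8 and 14.4 CPM, all above WT, and was not called (log2 fold change 0.60, edgeR adjusted p = 0.0721).

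Of 15 genes of large subunit assembly 5 were called higher and 0 lower, where 7.31% and 8.07% of all tested genes were. Their median was 0.59. Rrs1, which helps to place the short ribosomal RNA, had the largest rise of the 75 genes. It measured 12.5, 12.6 and 8.22 CPM in the WT livers against 38.9, 32.4 and 27.9 CPM in those labelled iKO and rose by 1.57 (SE 0.21, edgeR adjusted p = 0.00252). Nop2, for a methyltransferase of the large-subunit RNA, measured 13.0, 11.5 and 11.6 CPM in the WT livers against 36.2, 26.2 and 32.1 CPM and rose by 1.39 (SE 0.17, edgeR adjusted p = 0.00189). No single library ended these calls. Nol12 measured 9.29, 10.5 and 9.33 CPM in the WT livers against 20.9, 12.9 and 18.8 CPM and rose by 0.85 (SE 0.20, edgeR adjusted p = 0.0239). Wdr12 measured 8.97, 8.97 and 8.65 CPM in the WT livers against 12.7, 14.2 and 17.1 CPM and rose by 0.72 (SE 0.17, edgeR adjusted p = 0.0246). Nol9, for a kinase that acts on the spacer RNA, measured 15.5, 14.4 and 14.3 CPM in the WT livers against 24.8, 23.5 and 22.6 CPM and rose by 0.68 (SE 0.14, edgeR adjusted p = 0.0155). In all 5 every library labelled iKO was above WT. Without WT 2 the calls of Nol12 (0.0741), Wdr12 (0.0943) and Nol9 (0.0836) ended, as they did without WT 3; that of Nol12 also ended without WT 1 or iKO 1, and those of Nol12 and Wdr12 without iKO 3. The Nol12 call ended with the length correction as well (0.0551). Nol8 measured 5.52, 5.55 and 1.88 CPM in the WT livers against 7.66, 11.04 and 14.2 CPM, a difference as large as in called genes with a wider spread (log2 fold change 1.35, edgeR adjusted p = 0.0539), and was called with the length correction (0.0376).

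Wdr12 works in a complex with Pes1 and Bop1, and neither of these was called. Pes1 measured 25.7, 26.2 and 29.8 CPM in the WT livers against 30.8, 27.9 and 25.7 CPM, with overlap (log2 fold change 0.05, 95% interval -0.28 to 0.38). Bop1 measured 21.1, 18.9 and 24.3 CPM in the WT livers against 31.0, 26.9 and 22.1 CPM, with overlap (log2 fold change 0.32, 95% interval -0.08 to 0.71). Mdn1, for a very large ATPase that strips factors from the maturing subunit, measured 8.97, 9.68 and 6.77 CPM in the WT livers against 8.86, 11.3 and 18.2 CPM, and iKO 3 was its highest library (log2 fold change 0.60, edgeR adjusted p = 0.159). With the length correction it was called (0.0460). Over 12995 genes the log2 fold change without that correction fell with transcript length (Spearman correlation -0.353). With it the correlation was 0.0155. Over the 75 genes the correction gave 19 higher and 2 lower, and 16 of the 21 calls were among them. Of all tested genes 5.46% and 5.91% (11.4% in all) were called with it.

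**Figure D2:**
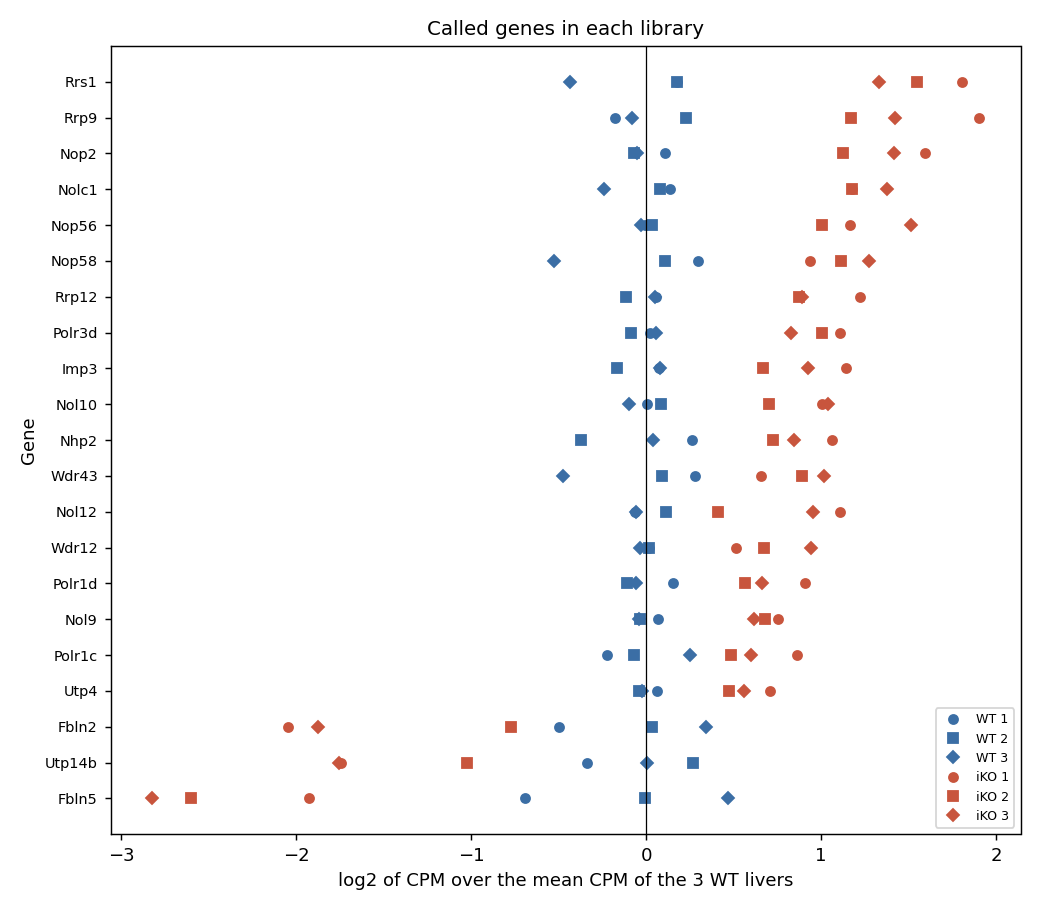
Level of the 21 called genes in each library as the log2 of CPM over the mean CPM of the 3 WT livers; blue symbols are WT, red symbols labelled iKO, and the shape gives the library number. In the 18 genes called higher every red symbol lies to the right of every blue one, and in Fbln2, Utp14b and Fbln5 to the left.

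Nucleolin and nucleophosmin, abundant nucleolar chaperones, did not separate the groups. Ncl measured 98.7, 83.3 and 61.6 CPM in the WT livers against 55.0, 116 and 120 CPM in those labelled iKO. Npm1 measured 77.1, 65.0 and 48.2 CPM in the WT livers against 42.6, 94.1 and 108 CPM. Both put the 6 libraries in 1 order, with iKO 1 lowest and iKO 3 highest. Neither was called, Ncl (log2 fold change 0.26, edgeR adjusted p = 0.583) or Npm1 (log2 fold change 0.36, edgeR adjusted p = 0.483). Leaving out iKO 1 moved Ncl to 0.54 (edgeR adjusted p = 0.121) and Npm1 to 0.67 (0.0702), and with the term for Y-linked reads Ncl was at -0.02. Among the 75 genes 37 had their highest CPM in iKO 1. The share over all tested genes was not counted, so whether this number is particular to these genes was not tested.

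**Figure D3:**
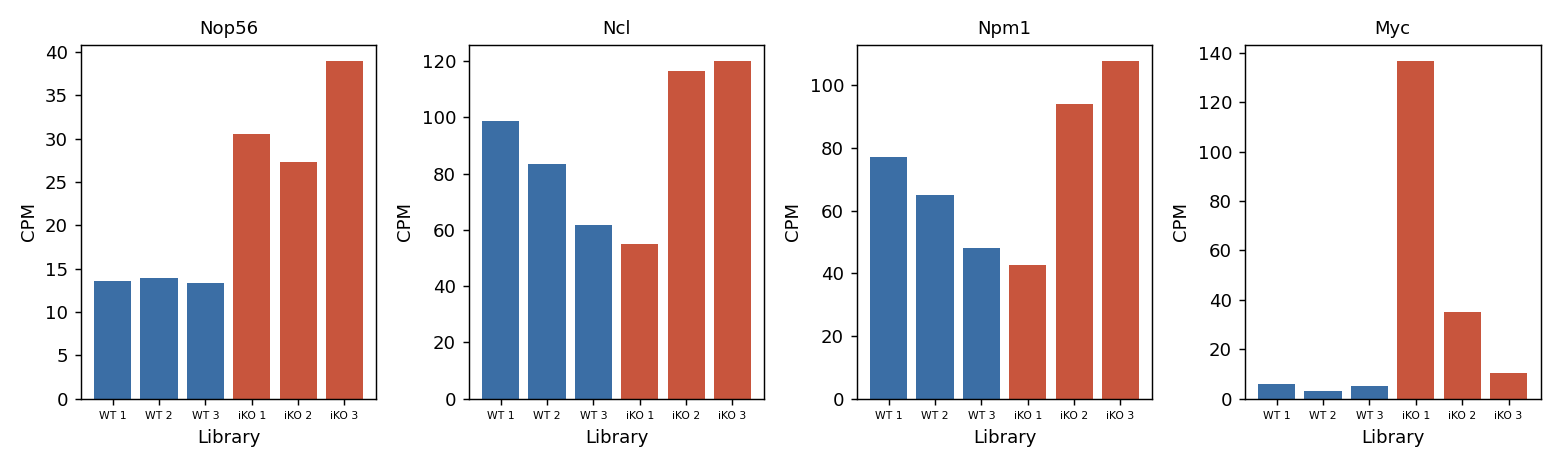
CPM of Nop56, Ncl, Npm1 and Myc in each library, blue for WT and red for labelled iKO, with axes from 0. Nop56 is higher in all 3 red bars, Ncl and Npm1 are lowest in iKO 1, and Myc runs from 136 CPM in iKO 1 to 10.4 CPM in iKO 3.

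The level of iKO 1 depends on the scale. Its TMM factor was 0.780, the lowest of the 6, which raises its CPM. Summed over the 68 genes with a role, CPM came to 1217, 1142 and 1124 in WT and to 1615, 1501 and 1613 in the livers labelled iKO, without overlap. Summed TPM came to 998, 1200 and 1042 in WT and to 984, 1281 and 1434 in those labelled iKO, and there iKO 1 was the lowest library of all. Of the 75 genes 33 had their lowest TPM in iKO 1, and 38 their highest in iKO 3. The matching shares over all tested genes were not counted. Of the 18 genes called higher 11 had no overlap in TPM. Nop56 was among them, at 11.4, 15.6 and 12.8 TPM in the WT livers against 18.3, 24.1 and 34.8 TPM, as was Rrs1, at 10.2, 13.5 and 7.51 TPM in the WT livers against 22.0, 27.0 and 24.0 TPM. Polr1c was not, at 11.7, 17.2 and 18.3 TPM in the WT livers against 17.3, 19.6 and 21.9 TPM. With limma on log2(FPKM + 1), 9 of the 75 genes were called higher and 2 lower, where 421 and 931 of all 13160 tested genes were. The median of all tested genes moved to -0.12. The median of the 75 was 0.15, which is 0.28 above it, and that of the polymerase III genes was -0.09.

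**Figure D4:**
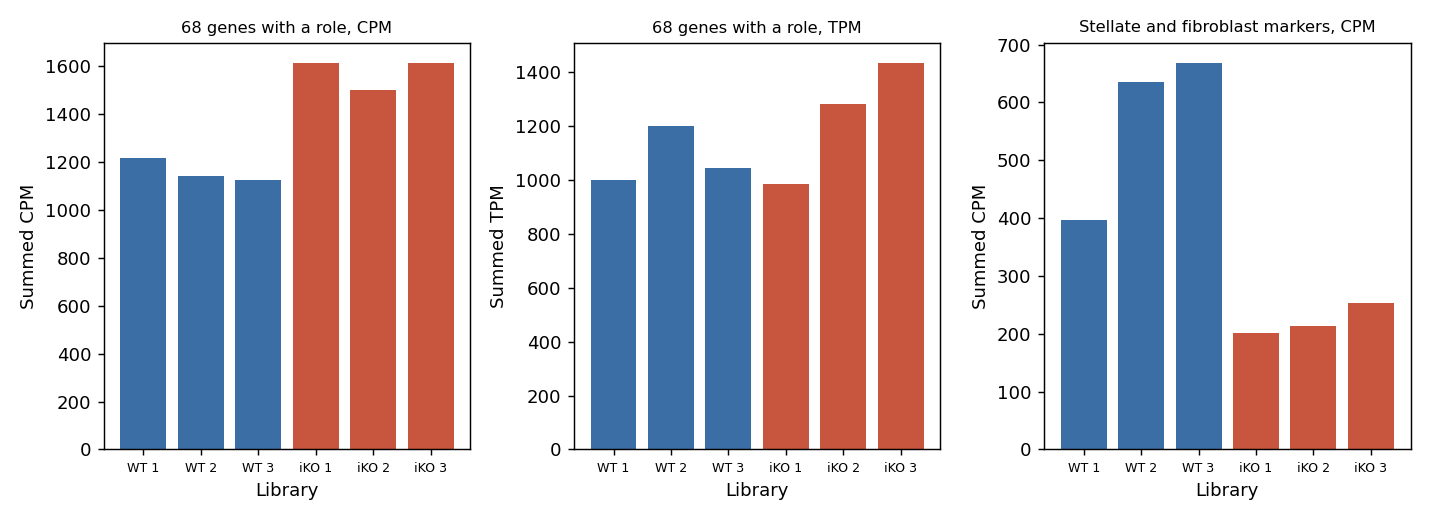
Summed level in each library of the 68 genes with a role in CPM (left) and TPM (middle), and of the 18 stellate cell and fibroblast markers in CPM (right); blue bars are WT, red bars labelled iKO, and axes start at 0. In CPM the 68 genes separate the groups, in TPM iKO 1 at 984 lies below all WT libraries, and the markers are lower in all 3 libraries labelled iKO.

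Levels per length differed widely between genes. In WT the highest means were those of Nop10 (94.3 TPM), Nop53, a factor of large subunit maturation (92.6 TPM), and Npm1 (87.1 TPM), and the lowest among genes with a role was that of Mdn1 (0.887 TPM). None of these 4 was called.

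With a term for Y-linked reads no gene was called and the median stayed close. Of the 75 genes 0 were called higher and 0 lower, where 0.593% and 0.805% of all tested genes were (1.4% in all). The median over the 75 was 0.40. The 21 called genes kept their sign, but their choice fixed this. In each of them every library labelled iKO lay beyond every WT library in CPM, WT 1 included. The lowest adjusted p were those of Nop2 (log2 fold change 1.28, edgeR adjusted p = 0.0564), Fbln5 (-1.72, 0.0636), Rrp9 (1.70, 0.0649) and Nop56 (1.25, 0.0680). In this fit the contrast rests on WT 1, the 1 WT library with such reads. In the 4 libraries with Y-linked reads alone 0 genes were called in either direction (0.485% higher and 0.566% lower of all tested genes, 1.05% in all), with a median of 0.41. With the term and the length correction together 1 was called higher, Nolc1 (edgeR adjusted p = 0.0451), and 0 lower, against 0.676% and 0.669% of all tested genes (1.34% in all).

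**Figure D5:**
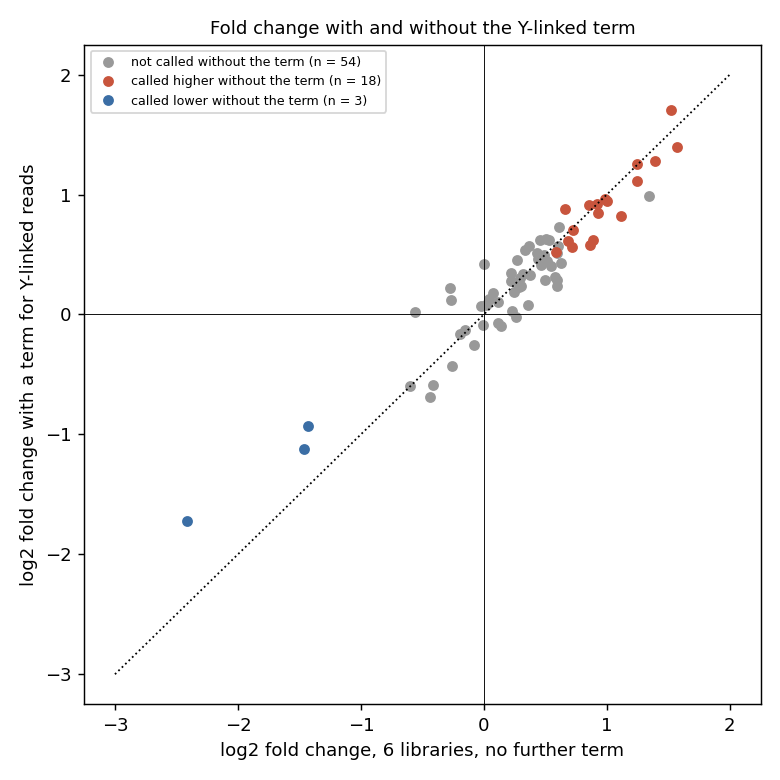
Log2 fold change of the 75 tested genes with a term for Y-linked reads (vertical axis) against that without it (horizontal axis), with equality as the dotted line. Red are the 18 genes called higher without the term, blue the 3 called lower and grey the 54 not called. All red points stay above 0 and all blue points below. This was fixed by the choice of these genes, whose groups did not overlap in CPM.

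Other genes of the pathway, 134 from a list outside the symbol pattern, gave 27 calls higher (20.1%, against 7.31% of all tested genes) and 0 lower (against 8.07%), with a median log2 fold change of 0.34. Ppan, a large subunit factor, measured 8.28, 7.95 and 9.52 CPM in the WT livers against 38.0, 24.0 and 31.7 CPM in those labelled iKO and rose by 1.86 (SE 0.20, edgeR adjusted p = 0.000875). It alone of the 134 was called with the Y-linked term (log2 fold change 1.91, edgeR adjusted p = 0.0305). Nob1, for the nuclease that makes the last cut of the small-subunit RNA, measured 5.52, 5.82 and 5.65 CPM in the WT livers against 18.8, 13.2 and 14.4 CPM and rose by 1.44 (SE 0.19, edgeR adjusted p = 0.00250). Gnl3, nucleostemin, measured 10.9, 9.10 and 5.61 CPM in the WT livers against 23.6, 25.9 and 28.6 CPM and rose by 1.61 (SE 0.24, edgeR adjusted p = 0.00354). These and the next 2 genes also had no overlap between groups. Exosc6, for a subunit of the RNA exosome, measured 4.09, 2.49 and 2.95 CPM in the WT livers against 11.1, 8.52 and 13.3 CPM and rose by 1.79 (SE 0.26, edgeR adjusted p = 0.00367). Nip7, a large subunit factor, measured 9.61, 8.88 and 7.10 CPM in the WT livers against 21.8, 15.5 and 19.7 CPM and rose by 1.15 (SE 0.19, edgeR adjusted p = 0.00669). By group, 10 of 44 large subunit factors, 6 of 35 small subunit factors and 4 of 21 snoRNP and exosome genes were called higher, beside the same 7.31% of all tested genes.

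Among 16 further genes of polymerase I and its regulators 6 were called higher (7.31% of all tested genes were). They were Polr2l, Polr2h and Polr2f, the subunit gene Cd3eap, Taf1c, for a part of the promoter selectivity factor, and Rrn3. Polr2l, Polr2h and Polr2f encode subunits shared among the polymerases, polymerase III included, and were counted under polymerase I alone. Rrn3, for the factor that ties polymerase I to growth signals, measured 18.3, 14.3 and 13.7 CPM in the WT livers against 28.8, 21.3 and 23.6 CPM in those labelled iKO and rose by 0.67 (SE 0.18, edgeR adjusted p = 0.0369). This call ended without WT 2 (0.153), WT 3, iKO 1 or iKO 3. Among 18 further polymerase III genes 1 was called higher (5.56%, against 7.31% of all tested genes). It was the subunit gene Crcp, which measured 13.8, 13.9 and 12.8 CPM in the WT livers against 22.2, 31.0 and 31.4 CPM and rose by 1.06 (SE 0.18, edgeR adjusted p = 0.00627). Maf1, for the repressor of polymerase III, measured 19.1, 17.9 and 23.0 CPM in the WT livers against 23.0, 19.3 and 17.9 CPM, with overlap (log2 fold change 0.01, edgeR adjusted p = 0.984).

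Myc had the largest fold change of the 134 genes without being called by edgeR. It measured 5.84, 2.97 and 4.98 CPM in the WT livers against 136, 35.0 and 10.4 CPM in those labelled iKO (log2 fold change 3.72, SE 1.11, edgeR adjusted p = 0.0915). The groups did not overlap, and iKO 1 was far above the others. DESeq2 called it (adjusted p = 0.00229), and so did edgeR without iKO 3 (0.0345); without iKO 1 its log2 fold change was 2.31 (0.0744). Clock genes separated the groups as well. Of 12, 7 were called higher and 3 lower, where 7.31% and 8.07% of all tested genes were; with the Y-linked term 4 and 2 were called (0.593% and 0.805% of all tested genes). Dbp, a clock output gene, measured 0.797, 1.24 and 2.27 CPM in the WT livers against 99.8, 141 and 144 CPM, and Arntl, for BMAL1, measured 31.3, 32.4 and 30.5 CPM in the WT livers against 3.86, 2.63 and 1.56 CPM. The part of Myc or of the time of day in the values of the ribosome genes was not tested.

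Genes that matched by prefix alone gave 0 calls higher and 2 lower of 7 tested, where 7.31% and 8.07% of all tested genes were called. Fbln5, for an elastic fibre protein, measured 7.06, 11.4 and 15.8 CPM in the WT livers against 3.00, 1.88 and 1.61 CPM in those labelled iKO and fell by 2.41 (SE 0.35, edgeR adjusted p = 0.00369), a call that no single library ended. Fbln2, for a matrix protein, measured 1.75, 2.53 and 3.14 CPM in the WT livers against 0.599, 1.45 and 0.674 CPM and fell by 1.43 (SE 0.42, edgeR adjusted p = 0.0490), a call that ended with the length correction (0.0795) and without WT 2 (0.154), WT 3, iKO 1 or iKO 3. Both are on the list of stellate cell and fibroblast markers, whose sums and calls are given above and include them. Fbln1, which edgeR did not call, is on that list too. Fbln1 measured 1.49, 2.31 and 2.03 CPM in the WT livers against 2.13, 1.61 and 1.14 CPM (log2 fold change -0.27, edgeR adjusted p = 0.629). Fblim1 measured 2.92, 5.11 and 5.03 CPM in the WT livers against 1.93, 2.52 and 4.36 CPM (log2 fold change -0.56, edgeR adjusted p = 0.307). Nol4l measured 1.54, 2.44 and 2.51 CPM in the WT livers against 1.13, 1.93 and 2.28 CPM (log2 fold change -0.27, edgeR adjusted p = 0.630). Ncln measured 58.8, 62.8 and 70.5 CPM in the WT livers against 84.5, 70.0 and 69.6 CPM (log2 fold change 0.22, edgeR adjusted p = 0.372), and Nol3 2.18, 1.64 and 3.48 CPM in the WT livers against 3.73, 3.00 and 3.32 CPM (log2 fold change 0.46, edgeR adjusted p = 0.358). The groups overlapped in these 5 genes.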

How the data were processed

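Gene expression was measured in 6 livers, 3 per group. The submitters' processing notes name HISAT2 2.0.4, Bowtie2 2.2.5, RSEM 1.2.12 and mm9, without their roles; strand use is unknown here. The authors deposited expected counts estimated per gene, of which 64.9% to 68.3% per library were whole within 0.001. They also deposited FPKM values, scaled to length and library, and TPM values, scaled to a common total.

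Expected counts were rounded and tested with edgeR 4.0.16 in R 4.3.3 (filterByExpr, TMM, robust quasi-likelihood, Benjamini-Hochberg over 13160 genes). The alternatives used DESeq2 1.42.0, limma 3.58.1 (pseudocounts 1 and 0.1), other scaling factors, no filter, a replicate block, each library left out, a term for libraries with over 10 Y-linked counts, and a length offset (lowess span 0.3, lengths from counts and FPKM from 0.2 up). The script was tested on simulated counts. Members and lists were chosen with earlier results of these data known. Library values are given, by rule, for called members, 18 anchor genes, prefix matches, the 6 other pathway genes of lowest p, Rrn3, Maf1 and Myc; further genes were named after their values were seen, and 1 gene is counted but not reported here by name. No 2 libraries were near-identical in counts. How far read depth and the spread between libraries each limit the precision was not tested.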

Additional observations from a re-analysis of the deposited data

How the results depend on the processing

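With RLE or upper-quartile factors, DESeq2, limma-voom, the length correction, no filter and the replicate block, between 17 and 20 genes were called higher (18 in the report). The replicate numbers were not taken as pairs: deviations of same-numbered libraries correlated at 0.206, 0.212 and 0.0468, and 3 of 6 libraries correlated best with their own number. With the replicate block 18 genes were called higher and 3 lower (median 0.43), with 21 other pathway genes and 1710 genes in all. With the Y-linked term 0 genes were called higher and 0 lower, with 1 other pathway gene higher and 184 genes in all; in the libraries with Y-linked reads alone the counts were 0, 0, 1 and 143, and with the term and the length correction 1, 0, 1 and 177 (median 0.366). With log2(FPKM + 0.1) 9 genes were called higher and 2 lower (median 0.175), 10 other pathway genes higher and 1353 genes in all, and with log2(FPKM + 1) 9 and 2 (median 0.154), 10 and 1352. Calls over all genes were then 427 higher and 926 lower, or 421 and 931, against 962 and 1062; with upper-quartile factors 830 and 1248, and without iKO 2 922 and 713. Upper-quartile factors gave 1 other pathway gene lower. In the fit of the report, 1 gene was called lower when the prefix matches are left out of the count. With 1 library left out, genes called higher ran from 7 (without WT 2; 11 without WT 3) to 18, genes called lower from 1 (without WT 2 or iKO 3) to 4, other pathway genes higher from 9 (without WT 2; 11 without WT 3, 14 without iKO 3) to 22, all genes called from 491 (without WT 2; 908 without WT 3, 946 without iKO 3) to 1840, and the median from 0.369 to 0.516. The cause of these shifts was not tested. Of the named genes' values under 18 alternatives, 776 kept their side of the threshold, 154 lost a call and 6 gained one; 0 changed sign with a call.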
